A study of Homo sapiens and Mus musculus with 4 samples.

Results

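Interferon-stimulated genes and interferon receptors were examined as a set of 40 human symbols, taken with the mouse genes of the same symbol. The set was given as a list of symbols, which was drawn up with earlier results of these data known, and it covered 40 human and 39 mouse genes, 79 of the 60736 genes in the table. Mouse Mx2 was not analysed here. By role, the members were receptors (4 symbols), transcription factors (6), RNA sensors (3), antiviral effectors (15), proteins of the ubiquitin-like and ADP-ribose systems (8) and other induced genes (4).

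The study sequenced messenger RNA in bulk from 4 lymphoid cell lines, as a baseline for single-cell methods. Jurkat is a human CD4+ T-cell leukaemia line, TALL104 is a human CD8+ T-cell leukaemia line, EL4 comes from a T-cell lymphoma of the mouse and IVA12 from a B-lineage hybridoma of the mouse. No interferon or other treatment was compared between groups, but the media differed by line, and by the study's methods TALL104 alone was grown with interleukin-2. Each line was 1 library, so no spread between cultures could be measured, no test was possible, and lines were compared within a species only.

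Interferons are cytokines that cells release when they sense viral nucleic acid. Type I interferons bind the IFNAR1 and IFNAR2 chains and interferon gamma binds IFNGR1 and IFNGR2, and both receptors signal through Janus kinases to STAT proteins. Type I signalling assembles a complex with STAT2 and IRF9 that binds the interferon-stimulated response element. The induced genes include sensors that amplify the response, effectors that block steps of viral replication, and brakes that end the signal.

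The response element was looked for in the human members because it is the shared regulatory sequence that defines much of this gene class. RefSeq promoter windows (GRCh38.p14 table, 250 bases before to 50 after a start) were given for 30 of the 40 human members, and each of their 41 windows was placed in hg19 by exact match. The core GAAANNGAAA was searched on both strands, with overlapping matches allowed. It was present for 17 of the 30 members (56.7%), against 4.38% of the 27305 symbols in the table. Counted by window, 20 of 41 member windows (48.8%) and 3.57% of all 35116 windows held it. Below are 30-base stretches of hg19 from some of the members that held a match. They are written 5′ to 3′ on the strand of the gene, with the core match in capitals. A match on the opposite strand reads TTTCNNTTTC.
ISG15: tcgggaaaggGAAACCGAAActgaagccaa
IFIT1: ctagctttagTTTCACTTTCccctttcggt
IFITM1: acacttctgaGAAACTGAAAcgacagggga
IFITM3: aaactgttgaGAAACCGAAActactgggga
BST2: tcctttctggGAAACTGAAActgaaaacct
RSAD2: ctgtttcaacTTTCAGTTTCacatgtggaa
DTX3L: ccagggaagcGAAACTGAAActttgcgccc
PARP9: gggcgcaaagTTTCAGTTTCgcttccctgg

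The ISG15 stretch lies at chr1:948760-948789 on the plus strand, and its core begins 107 bases before the annotated start. A second match in the ISG15 window begins at position -113 and overlaps it. The IFIT1 stretch (chr10:91152254-91152283, plus strand) has its core at position -116. IFITM1 (chr11:314024-314053, plus strand) has a core at position -6, and IFITM3 (chr11:320876-320905, minus strand) has one at position -35. The BST2 stretch (chr19:17516550-17516579, minus strand) holds the first of a pair of overlapping matches, at positions -130 and -124. RSAD2 (chr2:7017753-7017782, plus strand) has its core at position -145. DTX3L and PARP9 are neighbours transcribed in opposite directions, and their stretches are the same bases, chr3:122283169-122283198, read on the plus strand for DTX3L and on the minus strand for PARP9.

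The matches were spread unevenly over the roles. Both RNA sensors with a window held the core, as did 9 of 10 antiviral effectors, 5 of 7 members of the ubiquitin-like and ADP-ribose systems and 1 of 4 other induced genes. It was found in 0 of 3 receptors and 0 of 4 transcription factors, which says only that these letters are not in these windows. Split by the human comparison described below, the core was in 2 of 5 members higher in Jurkat, 9 of 16 higher in TALL104 and 6 of 9 that were not past the threshold. No window was given for DHX58, GBP2, IFIT2, IFITM2, IFNAR2, IRF2, IRF7, MX2, OAS2 and USP18. A match is a description of sequence and not evidence of binding.

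**Figure D1:**
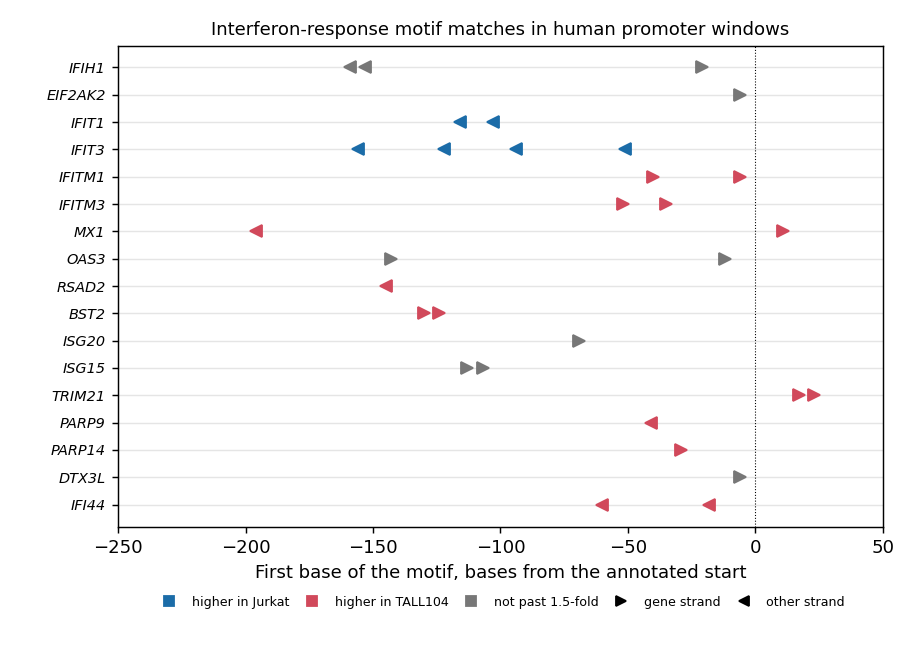
Position of each core match (first base, in bases from the annotated start, x axis) in the human promoter windows of the 17 members that hold one (rows), with arrowheads for the strand relative to the gene and colours for the human comparison. Matches range from position -196 in MX1 to position 23 in TRIM21, and members of all 3 colour classes hold matches.

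The values were FPKM, which divide fragments by the length of the gene and the size of the library. Whole reads were recovered from them, and the library totals were 34783047 (Jurkat), 28345951 (TALL104), 32149319 (EL4) and 25286728 (IVA12). Intervals in parentheses are 95% intervals for the counting of those reads. They cover counting error only, and they may be too wide, because the length behind the reads matched the annotated exon length for 1 human and 28 mouse members, and the reads of the others may lack a common factor. A fold is the ratio of FPKM, a log2 ratio is taken on FPKM + 1, and a member was called higher in a line when the ratio on FPKM + 1 was past 1.5-fold. A level of at least 1 FPKM was taken as detected.

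The lines were checked against defining markers. In the human lines CD3E was 166 FPKM in Jurkat and 233 FPKM in TALL104, and the T-cell list was split, with 4 of 10 markers higher in Jurkat and 1 in TALL104. CD28 (57.4 FPKM in Jurkat) and THY1 (6.52 FPKM) were at 0.989 and 0.0179 FPKM in TALL104. Some genes of the B-lineage and plasma-cell list were also detected in these T-cell lines, among them CD79A at 16.5 and 24.6 FPKM, MZB1 at 47.7 and 8.88 FPKM and XBP1 at 31.3 and 76.6 FPKM in Jurkat and TALL104, while PAX5 had 2 and 0 reads. Of those 10 markers, 3 were higher in TALL104 and 2 in Jurkat. Among human genes detected in either line, 34.2% were higher in Jurkat and 28.4% in TALL104, and among all human genes 13.8% and 11.4%. In the mouse lines Cd3e was 63.6 FPKM in EL4 and 0.0275 FPKM in IVA12, whereas Jchain, the joining chain of secreted antibody, was 0.148 and 1289 FPKM. Cd79a, a chain of the B-cell receptor complex, had 2 reads in IVA12. Over the mouse lists, 10 of 10 T-cell markers were higher in EL4 and 7 of 10 B-lineage and plasma-cell markers in IVA12. Among mouse genes detected in either line, 23.8% were higher in EL4 and 26.5% in IVA12, and among all mouse genes 9.75% and 11.2%. Of 10 monocyte, macrophage and dendritic-cell markers in the human pair, ITGAM (0.0406 and 1.47 FPKM in Jurkat and TALL104) and ADGRE1 (0.264 and 8.79 FPKM) were higher in TALL104, while the summed level of the list was 0.472 and 10.5 FPKM. CSF1R, FCGR1A and CLEC4C had 0 reads in both human lines, and CD14 had 3 reads in Jurkat and 1 in TALL104. Their part in the results was not tested. In bulk RNA, fewer cells with a transcript and less of it per cell cannot be told apart. The share of FPKM on mitochondrial genes was 14.9% for Jurkat, 20.6% for TALL104, 5.04% for EL4 and 4.79% for IVA12.

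Over the set as a whole, these genes took a larger share of FPKM in TALL104 than in Jurkat and in IVA12 than in EL4. FPKM is a share of a library and not an amount per cell. The paper describes TALL104 cells as smaller than the other lines, slow to grow and difficult to culture. It relates their low transcript recovery, at least in part, to a lower mRNA content. The summed FPKM of the 40 human members was 382 in Jurkat and 1124 in TALL104, which is 0.151% and 0.445% of the human FPKM of each library. For the 39 mouse members the sum was 459 in EL4 and 813 in IVA12, or 0.142% and 0.252% of the mouse FPKM. A single gene took up much of each higher sum, since IFITM1 alone had 326 FPKM in TALL104 and Bst2 had 245 FPKM in IVA12. The median member stood at 6.14 FPKM in Jurkat and 15.2 in TALL104, and at 5.95 in EL4 and 7.56 in IVA12. At least 1 FPKM was reached by 33 members in each human line, by 27 in EL4 and by 33 in IVA12.

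In the human pair, 23 of 40 members (57.5%) were higher in TALL104, against a background of 11.4% of all 32738 human genes. Higher in Jurkat were 6 members (15%), against a background of 13.8%, and these were IFNGR2, IRF8, IFIT1, IFIT3, USP18 and TRIM25. The other 11 were not past the threshold. Many genes of the background are silent in both lines, and among genes with at least 1 FPKM in either line the backgrounds were 28.4% for TALL104 and 34.2% for Jurkat. Of the members, 37 met that minimum, 22 of them higher in TALL104 and 5 in Jurkat. IRF8, MX1 and ISG20 did not meet it. The median log2 ratio of Jurkat over TALL104 was -0.90 over the members and 0 over all human genes. Scaling by the median ratio of genes detected in both lines shifted human log2 ratios of FPKM, taken before 1 was added, by -0.11. Ratios on FPKM + 1 shifted by less at low levels. The count in TALL104 rose to 25, with 6 in Jurkat. With at least 1 FPKM required in both lines, 18 of 29 members were higher in TALL104. Only TRIM25 (1 of 29) was higher in Jurkat, since the other 5 were under 1 FPKM in 1 or both lines. No share of all genes was computed at this minimum or after scaling.

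In the mouse pair, 21 of 39 members (53.8%) were higher in IVA12, against a background of 11.2% of all 27998 mouse genes. The 8 members higher in EL4 (20.5%, background 9.75%) were Ifngr1, Ifngr2, Irf8, Eif2ak2, Ifit2, Rsad2, Samd9l and Gbp2. A further 10 were not past the threshold. Among detected genes (1 FPKM or more in either line), the backgrounds were 26.5% for IVA12 and 23.8% for EL4. There were 35 members at that minimum, 20 of them higher in IVA12 and 6 in EL4, and Irf8, Ifitm1, Oas2 and Rsad2 were below it. The median log2 ratio of EL4 over IVA12 was -0.90 over the members and 0 over all mouse genes. At a 2-fold threshold only Ifngr1 and Samd9l of the 8 were still higher in EL4, and 18 members were higher in IVA12. With at least 1 FPKM required in both lines, 4 of 25 were higher in EL4 and 12 in IVA12. No share of all genes was computed at either setting.

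**Figure D2:**
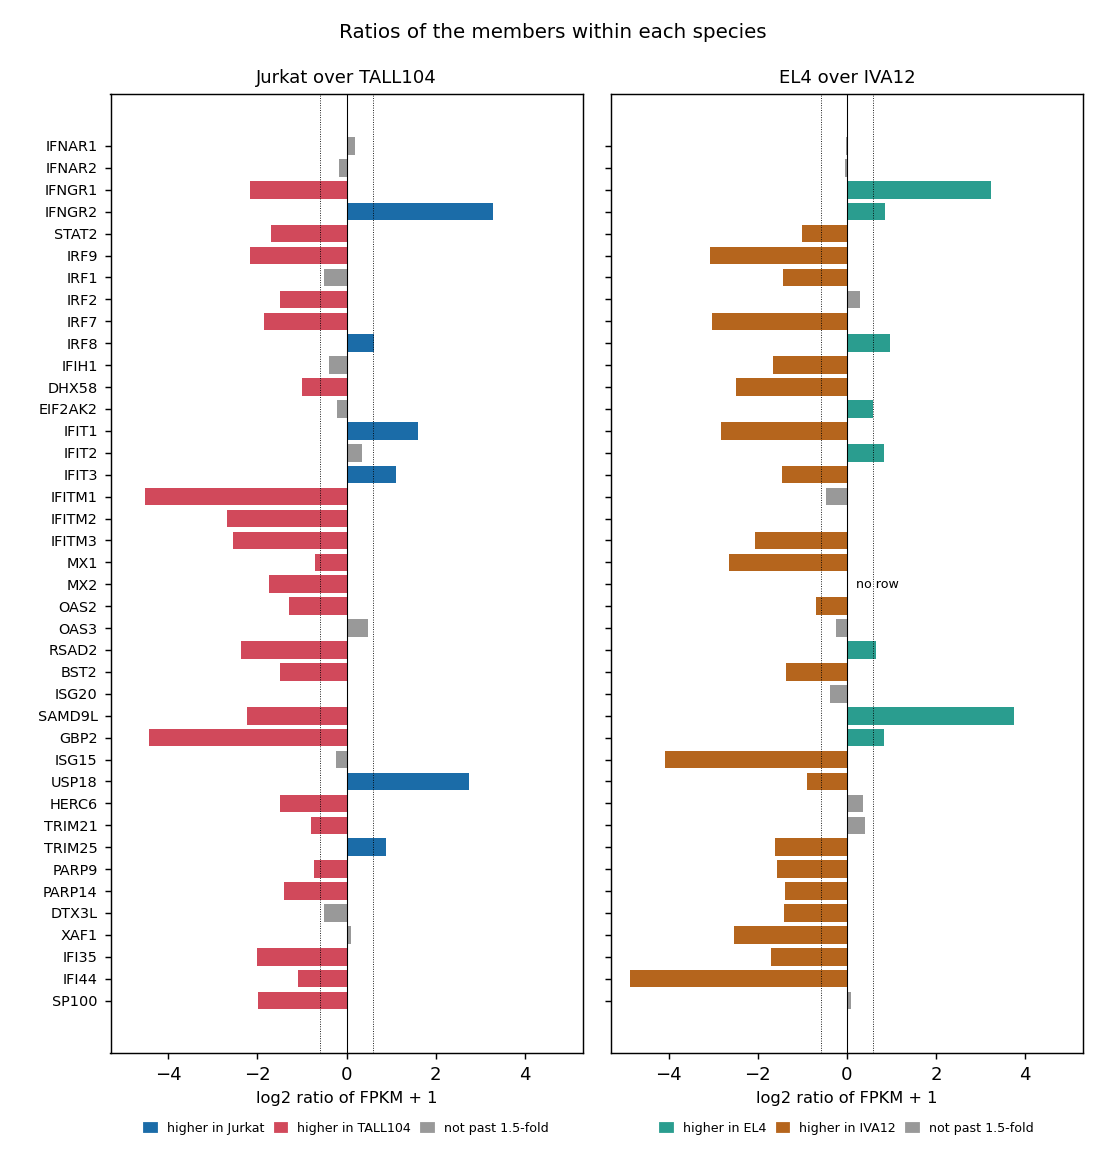
Log2 ratio of FPKM + 1 (x axes) for each member (rows, by human symbol) in the human pair (left, Jurkat over TALL104) and the mouse pair (right, EL4 over IVA12), with dotted lines at 1.5-fold and 1 library per line. Most bars point left, and those past 1.5-fold point to TALL104 in 23 of 40 members and to IVA12 in 21 of 39. IFNGR2 and USP18 in the left panel and Samd9l and Ifngr1 in the right panel extend furthest the other way.

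Of the receptors, the type I chains were at similar levels within each species and the interferon gamma chains were not. IFNAR1 had 20.0 FPKM in Jurkat and 17.3 in TALL104, a 1.16-fold difference (1.11 to 1.21). IFNAR2 had 20.2 and 22.8 FPKM, although 25.0% of its read-length windows are also found in another gene, among them the IFNAR2-IL10RB readthrough gene that overlaps it. Mouse Ifnar1 had 9.17 FPKM in EL4 and 9.30 in IVA12. Mouse Ifnar2 had 7.14 and 7.40 FPKM. Neither mouse type I chain differed beyond counting error, with intervals for EL4 over IVA12 of 0.919 to 1.06 and 0.867 to 1.07.

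IFNGR1, the ligand-binding chain of the interferon gamma receptor, had 16.4 FPKM in Jurkat and 77.2 in TALL104, 4.71-fold higher in TALL104 (4.45 to 4.98). IFNGR2, the signal-transducing chain, had 11.9 FPKM in Jurkat and 0.310 in TALL104, from 1222 and 26 reads, 38.3-fold higher in Jurkat (26.0 to 58.9). In the mouse libraries, where human IFNGR2 should be absent, 1 read was assigned to it in EL4 and 2 in IVA12. TALL104 thus had the higher level of the first chain and the lower level of the second. In the annotation, 380 exonic bases of IFNGR2 overlap TMEM50B on the other strand, and whether the counting used strand is not given in the sources used here.

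In the mouse pair both chains were higher in EL4. Ifngr1 was the wider difference, at 78.9 FPKM in EL4 and 7.49 in IVA12, 10.5-fold higher in EL4 (9.66 to 11.5). Ifngr2 followed at 6.27 against 3.04 FPKM (2.06-fold, 1.78 to 2.39). Both mouse chains were detected in both lines.

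IFNGR2 lies in a cluster of cytokine receptor genes on chromosome 21 of hg19, in the order IFNAR2 (chr21:34577587-34637980), IL10RB (chr21:34638672-34683725), IFNAR1 (chr21:34696692-34732170) and IFNGR2 (chr21:34775719-34851655), all on the plus strand. The low level in TALL104 was not shared by the neighbours, since IL10RB was 7.68 FPKM in Jurkat and 20.4 in TALL104, and the IFNAR genes were within 1.5-fold. The same order is found on mouse chromosome 16, where Ifngr2 (chr16:91547072-91565623 in mm10) is the last of the 4.

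**Figure D3:**
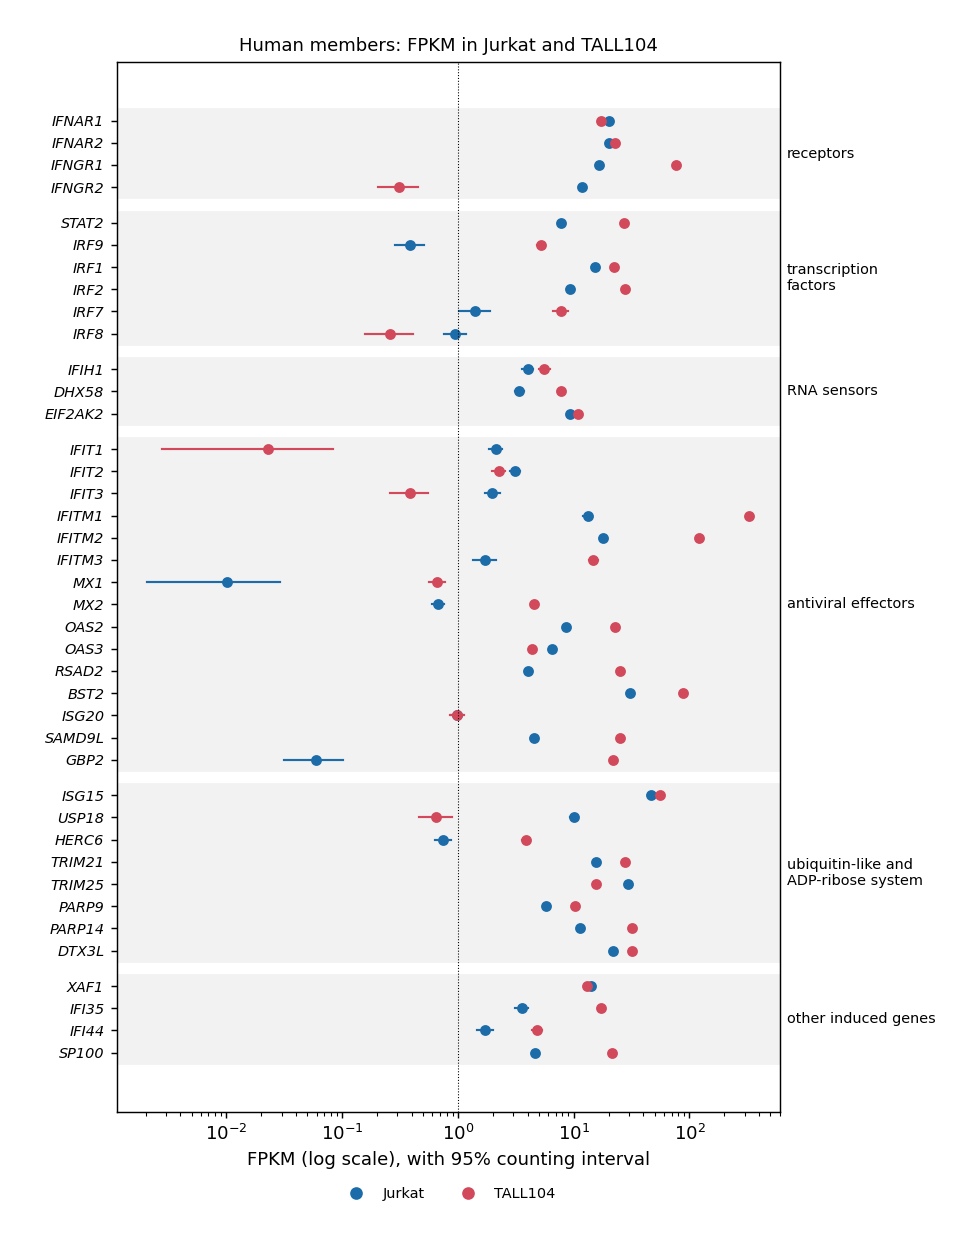
FPKM (log x axis) of the 40 human members by role in Jurkat and TALL104, as points with 95% counting intervals from 1 library each, and a dotted line at 1 FPKM. TALL104 lies to the right for most members, and IFNGR2, USP18 and IFIT1 are the widest gaps in the opposite direction.

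Among the transcription factors, the partners of the type I complex were higher in TALL104 and in IVA12. STAT2 had 7.73 FPKM in Jurkat and 27.2 in TALL104 (3.52-fold, 3.33 to 3.73). IRF9, which gives the complex its DNA contact, had 0.386 and 5.23 FPKM (13.5-fold, 10.1 to 18.4), with 17% of its windows shared with other genes, most of them with a gene that overlaps it on the same strand. Mouse Stat2 had 7.96 FPKM in EL4 and 16.9 in IVA12 (2.12-fold, 1.97 to 2.29). Mouse Irf9 had 1.09 and 16.6 FPKM (15.2-fold, 13.1 to 17.7). Of the 2 factors, IRF9 thus differed by more than STAT2 in either species.

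IRF7, which drives the amplification of interferon alpha genes, had 1.41 FPKM in Jurkat and 7.69 in TALL104 (5.45-fold, 3.90 to 7.78). Mouse Irf7 had 0.371 FPKM in EL4 and 10.1 in IVA12 (27.3-fold, 19.5 to 39.3). IRF1, an activator induced by interferon gamma, had 15.4 and 22.2 FPKM in the human pair, below the threshold at 1.44-fold, and 15.8% of its windows are shared with another gene. Mouse Irf1 had 6.49 FPKM in EL4 and 19.4 in IVA12 (2.98-fold, 2.75 to 3.24).

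IRF2, which can oppose IRF1 at the same elements, had 9.28 FPKM in Jurkat and 27.9 in TALL104 (3.01-fold, 2.80 to 3.24). Mouse Irf2 was not past the threshold, at 16.9 FPKM in EL4 and 13.6 in IVA12. IRF8, a factor of myeloid and B-lineage cells, was below 1 FPKM in all 4 lines. Its levels were 0.947 FPKM in Jurkat and 0.260 in TALL104, and mouse Irf8 was 0.970 FPKM in EL4 against 0.00561 in IVA12, from 220 reads and 1 read (173-fold, 30.7 to 6865). The B-lineage line thus had the lower Irf8 level.

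**Figure D4:**
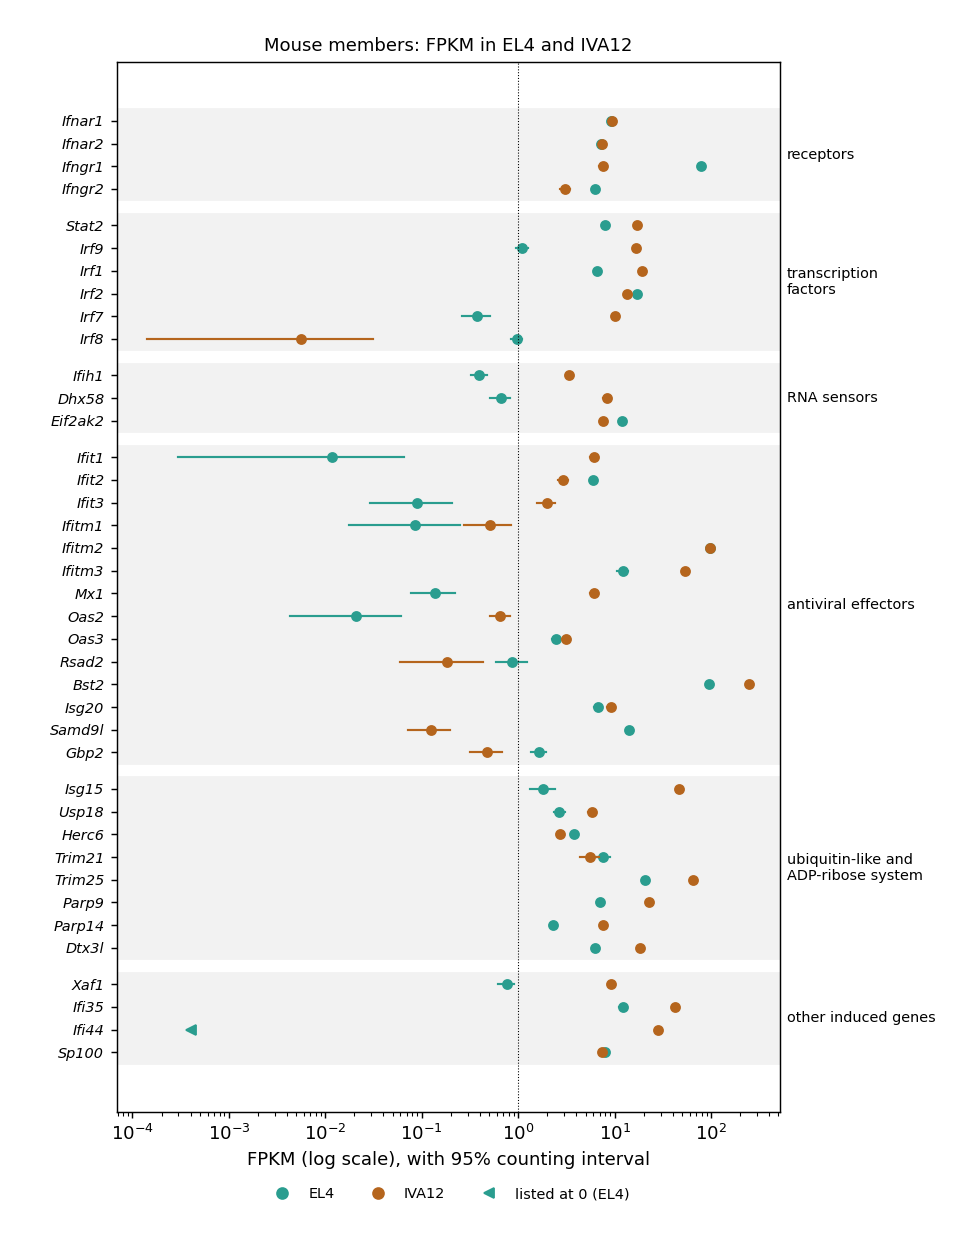
FPKM (log x axis) of the 39 mouse members by role in EL4 and IVA12, as points with 95% counting intervals from 1 library each, a dotted line at 1 FPKM, and a triangle for Ifi44, which is listed at 0 in EL4. Ifit1, Ifi44, Mx1 and Isg15 lie far to the right in IVA12, and Samd9l and Ifngr1 in EL4.

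Of the 3 RNA sensors, DHX58 (LGP2) was the one past the threshold in the human pair, higher in TALL104. In the mouse pair 2 were higher in IVA12 and 1 in EL4. Of detected human genes 28.4% were higher in TALL104, and of detected mouse genes 26.5% were higher in IVA12 and 23.8% in EL4. Of all genes these shares were 11.4%, 11.2% and 9.75%. With 3 genes, little can be read from the counts. DHX58, which tunes the RIG-I-like receptors, had 3.39 FPKM in Jurkat and 7.78 in TALL104 (2.30-fold, 2.05 to 2.58). Mouse Dhx58 had 0.656 FPKM in EL4 and 8.25 in IVA12 (12.6-fold, 9.81 to 16.4). IFIH1 (MDA5), a sensor of long double-stranded RNA, had 4.01 FPKM in Jurkat and 5.59 in TALL104, a ratio of 1.39. Mouse Ifih1 had 0.392 and 3.38 FPKM (8.62-fold, 7.0 to 10.7). EIF2AK2 (PKR), the kinase that halts translation on double-stranded RNA, was 9.28 and 10.9 FPKM in Jurkat and TALL104. Mouse Eif2ak2 was 11.9 and 7.59 FPKM in EL4 and IVA12, just past the threshold with a log2 ratio of 0.59 and in the direction opposite to the other sensors.

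Of the antiviral effectors in the human pair, 10 of 15 (66.7%) were higher in TALL104, against 11.4% of all and 28.4% of detected human genes, and 2 (13.3%) were higher in Jurkat, against 13.8% and 34.2%. Of the 15, 13 were detected in either line, and the median log2 ratio was -1.50. In the mouse pair 6 of 14 (42.9%) were higher in IVA12, against 11.2% of all and 26.5% of detected mouse genes. The 4 higher in EL4 (28.6%) were near the 23.8% of detected mouse genes, where the share of all mouse genes was 9.75%. Of the 14, 11 were detected in either line, and the median was -0.43.

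The IFITM genes, which encode membrane proteins that block the fusion of entering viruses, were all higher in TALL104. IFITM1 had 13.2 FPKM in Jurkat and 326 in TALL104 (24.7-fold, 22.6 to 27.1), the largest absolute log2 ratio of the human members at -4.53. IFITM2 had 18.1 and 121 FPKM, and IFITM3 had 1.71 and 14.8 FPKM. They lie together on chromosome 11 between 303655 and 329475. Of the IFITM1 windows 20.1% and of the IFITM3 windows 18.9% recur in another gene, in part in genes without a symbol. For IFITM3, 7.14% recur in IFITM1. Reads could thus have been divided between genes or dropped. The mouse family behaved member by member. Ifitm2 was 98 FPKM in EL4 and 98.1 in IVA12, with 34.6% of its windows shared. Ifitm3 was 12.1 and 53.5 FPKM (4.42-fold, 3.85 to 5.08), and Ifitm1 had 3 and 14 reads.

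The IFIT genes, whose products bind viral RNA that lacks host cap marks, included 2 of the 6 members higher in Jurkat. IFIT1 had 2.12 FPKM in Jurkat and 0.0229 in TALL104, from 227 and 2 reads (92.5-fold, 25.3 to 768). In the mouse libraries, human IFIT1 had 1 read in EL4 and 0 in IVA12. IFIT3 had 1.98 and 0.388 FPKM (5.11-fold, 3.44 to 7.85). IFIT2, located beside them on chromosome 10, had 3.11 and 2.24 FPKM and was not past the threshold.

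Mouse Ifit1 had 0.0117 FPKM in EL4 and 6.15 in IVA12, from 1 and 413 reads (525-fold, 93.7 to 20789). Ifit3 had 0.0891 and 1.97 FPKM (22.1-fold, 9.13 to 69.8), with 31.3% of its windows shared with another gene. Ifit2 went the other way, at 5.95 FPKM in EL4 and 2.92 in IVA12 (2.04-fold, 1.78 to 2.34). In both species, then, Ifit2 was detected in both lines, whereas Ifit1 was near 0 in 1 line of each pair.

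GBP2, a guanylate-binding GTPase mainly under interferon gamma, had 0.0596 FPKM in Jurkat and 21.9 in TALL104, from 13 and 3892 reads (367-fold, 215 to 691). Mouse Gbp2 was low in both lines, at 1.63 FPKM in EL4 and 0.472 in IVA12 (3.46-fold, 2.31 to 5.33). SAMD9L, a restriction factor that also limits growth, had 4.55 FPKM in Jurkat and 25.1 in TALL104 (5.53-fold, 5.18 to 5.90). Mouse Samd9l had 14.1 FPKM in EL4 and 0.124 in IVA12, from 2465 and 17 reads (114-fold, 71.1 to 196). Among the mouse members it had the largest log2 ratio in favour of EL4, at 3.75.

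MX1, a dynamin-like GTPase that traps viral nucleocapsids, was under 1 FPKM in both human lines, at 0.010 and 0.660 FPKM from 3 and 161 reads (65.9-fold, 22.1 to 323). Its neighbour MX2 had 0.674 FPKM in Jurkat and 4.57 in TALL104 (6.77-fold, 5.99 to 7.67). Mouse Mx1 had 0.137 FPKM in EL4 and 6.11 in IVA12 (44.7-fold, 27.3 to 78.8). RSAD2 (viperin) was 4.07 and 25.0 FPKM in Jurkat and TALL104, and mouse Rsad2 was 0.862 and 0.183 FPKM in EL4 and IVA12. BST2 (tetherin), which holds budding virions at the surface, was 30.6 and 88.6 FPKM in the human pair and 95 and 245 FPKM in the mouse pair. OAS2, an enzyme that makes the activator of RNase L, was 8.59 and 22.6 FPKM in Jurkat and TALL104, and mouse Oas2 was 0.0210 and 0.649 FPKM in EL4 and IVA12, from 3 and 73 reads (30.9-fold, 10.2 to 153). OAS3 was not past the threshold in either species, at 6.52 and 4.39 FPKM in the human and 2.46 and 3.09 FPKM in the mouse pair. Neither was the nuclease gene ISG20 past it, at 0.984 and 0.982 FPKM in the human and 6.72 and 9.12 FPKM in the mouse pair.

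In the ubiquitin-like system, the modifier and its protease did not follow each other in the human lines. ISG15, the ubiquitin-like protein that is conjugated to targets, had 46.7 FPKM in Jurkat and 55.4 in TALL104, within 1.19-fold (1.09 to 1.29). It was the highest member in Jurkat. USP18, which removes ISG15 and shuts off the type I receptor, had 9.99 and 0.646 FPKM (15.5-fold higher in Jurkat, 11.2 to 21.9). TRIM25, the ubiquitin ligase that acts on RIG-I, was the other member of this group higher in Jurkat, at 29.6 against 15.6 FPKM (1.89-fold, 1.81 to 1.98).

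In mouse, Isg15 had 1.81 FPKM in EL4 and 47.0 in IVA12 (26.0-fold, 19.2 to 36.0), with Usp18 at 2.66 and 5.84 FPKM (2.19-fold, 1.86 to 2.58). Trim25 had 20.7 and 65.2 FPKM (3.15-fold, 3.03 to 3.27). Both were thus higher in the same mouse line as Isg15. Altogether 6 of the 8 mouse members of this group (75%) were higher in IVA12 and 0 in EL4, where the backgrounds were 26.5% and 23.8% of detected genes and 11.2% and 9.75% of all genes.

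HERC6, a HECT-type ligase, had 0.744 FPKM in Jurkat and 3.90 in TALL104 (5.24-fold, 4.38 to 6.31), and mouse Herc6 had 3.75 and 2.71 FPKM in EL4 and IVA12, with 10.3% of its windows shared. PARP14, an ADP-ribosyltransferase, had 11.3 and 31.7 FPKM (2.80-fold, 2.70 to 2.90), and mouse Parp14 had 2.28 and 7.56 FPKM (3.31-fold, 3.03 to 3.62). PARP9 and its ligase partner DTX3L, which share the promoter stretch shown above, had 5.77 and 10.2 FPKM and 21.9 and 31.7 FPKM in Jurkat and TALL104, and PARP9 was past the threshold while DTX3L was not. Their mouse counterparts were past it together, Parp9 at 7.02 and 22.9 FPKM and Dtx3l at 6.33 and 18.5 FPKM in EL4 and IVA12. Exons of the neighbours overlap on opposite strands by 139 bases in human and 458 in mouse. TRIM21, a cytosolic antibody receptor, was 15.5 and 27.5 FPKM in the human pair and 7.62 and 5.49 FPKM in the mouse pair.

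The other induced genes included the widest mouse difference. Ifi44 had 0 reads in EL4 and 4367 in IVA12, where it reached 28.2 FPKM, at least 1851-fold higher against a floor of 3 reads in the EL4 library. Human IFI44 had 1.71 FPKM in Jurkat and 4.81 in TALL104 (2.81-fold, 2.33 to 3.39). XAF1, a promoter of apoptosis, was 14.0 and 13 FPKM in the human pair, with 31.2% of its windows shared, and mouse Xaf1 was 0.756 and 9.11 FPKM (12-fold higher in IVA12, 9.92 to 14.7). IFI35 was higher in TALL104 and in IVA12, at 3.54 and 17.2 FPKM and at 12.1 and 41.9 FPKM. SP100, a nuclear body protein, had 4.62 and 21.3 FPKM (4.61-fold, 4.39 to 4.84) in the human pair and stayed within the threshold in the mouse pair, at 7.98 and 7.41 FPKM.

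Placed side by side, 39 symbols could be followed in both species. Of these, 22 were higher in TALL104 and 21 in IVA12, and 12 (30.8%) were higher in both, against 3.68% of all 15550 symbols shared by the species. The product of the counts in each pair would give 11.8, close to the 12 seen, so nothing is read from the overlap. The 12 were STAT2, IRF9, IRF7, DHX58, IFITM3, MX1, OAS2, BST2, PARP9, PARP14, IFI35 and IFI44. IFNGR2 and IRF8 (2 symbols) were higher in Jurkat and in EL4. IFIT1, IFIT3, USP18 and TRIM25 were higher in Jurkat and in IVA12, and IFNGR1, RSAD2, SAMD9L and GBP2 in TALL104 and in EL4. Another 6 were past it in the human pair alone, 5 of the mouse genes were higher in IVA12 alone and 2 in EL4 alone. IFNAR1, IFNAR2, OAS3 and ISG20 were past the threshold in neither pair. The 2 pairs are different kinds of comparison, since the human lines are both T cells and the mouse lines are a T-cell and a B-lineage line.

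Most of the ligands themselves were under 1 FPKM. Of 21 human interferon genes, IFNL1, a type III interferon, had 8.44 FPKM in TALL104 and 0.0671 in Jurkat, from 205 and 2 reads (126-fold, 34.4 to 1046). IFNG had 1.27 FPKM in TALL104 from 44 reads and 1 read in Jurkat (54.0-fold, 9.20 to 2180). The third largest log2 ratio was that of IFNE, with 7 reads in TALL104 and 0 in Jurkat. No interferon alpha gene, nor IFNB1, had a read in either human line. None of 21 mouse interferon genes reached 1 FPKM, with 9 reads for Ifng in EL4, 2 for Ifnz in EL4 and 1 for Ifnb1 in IVA12.

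Downstream of the receptors, most signal transducers were also higher in TALL104. Of 14 kinases, STATs and brakes, 9 (64.3%) were higher in TALL104 and 1 in Jurkat, beside 28.4% and 34.2% of detected and 11.4% and 13.8% of all human genes, with a median log2 ratio of -0.99. JAK1, the kinase common to both receptors, had 21.0 FPKM in Jurkat and 187 in TALL104 (8.87-fold, 8.60 to 9.15). JAK2 had 3.41 and 6.96 FPKM and TYK2 had 15.9 and 33.8 FPKM. Both were past the threshold, in the same direction as STAT2.

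CISH, STAT4 and SOCS1 had the largest log2 ratios of this list in the human pair. CISH, a feedback inhibitor of cytokine receptors that interleukin-2 is known to induce, had 0.675 FPKM in Jurkat and 35.3 in TALL104 (52.2-fold, 38.2 to 73.4). STAT4, which carries the interleukin-12 signal, had 2.45 and 66.6 FPKM (27.2-fold, 24.5 to 30.3). SOCS1, the main brake on JAK kinases in interferon signalling, had 0.258 and 12.7 FPKM (49.2-fold, 27.2 to 99.3). Interleukin-2 in the medium of TALL104 cannot be told apart from the line itself in this design.

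In the mouse pair 4 of the 14 (28.6%) were higher in EL4 and 3 (21.4%) in IVA12, with a median log2 ratio of 0.03. These shares were near the 23.8% and 26.5% of detected mouse genes, where those of all mouse genes were 9.75% and 11.2%. Of the 14, 12 were detected in either line. Ptpn6 (SHP-1), a phosphatase that dampens receptor signalling, had 266 FPKM in EL4 and 6.31 in IVA12 (42.2-fold, 38.4 to 46.4). The brakes were divided between the lines, with Socs1 at 5.99 and 0.486 FPKM, from 47 and 3 reads (12.3-fold, 3.97 to 61.9), and Socs3 at 0.161 and 12.4 FPKM (76.9-fold higher in IVA12, 46.4 to 138). Jak1 had 38.5 FPKM in EL4 and 8.33 in IVA12, and Jak2 had 10.2 and 5.74 FPKM. Tyk2 (11.4 and 11.1 FPKM) was not past the threshold.

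**Figure D5:**
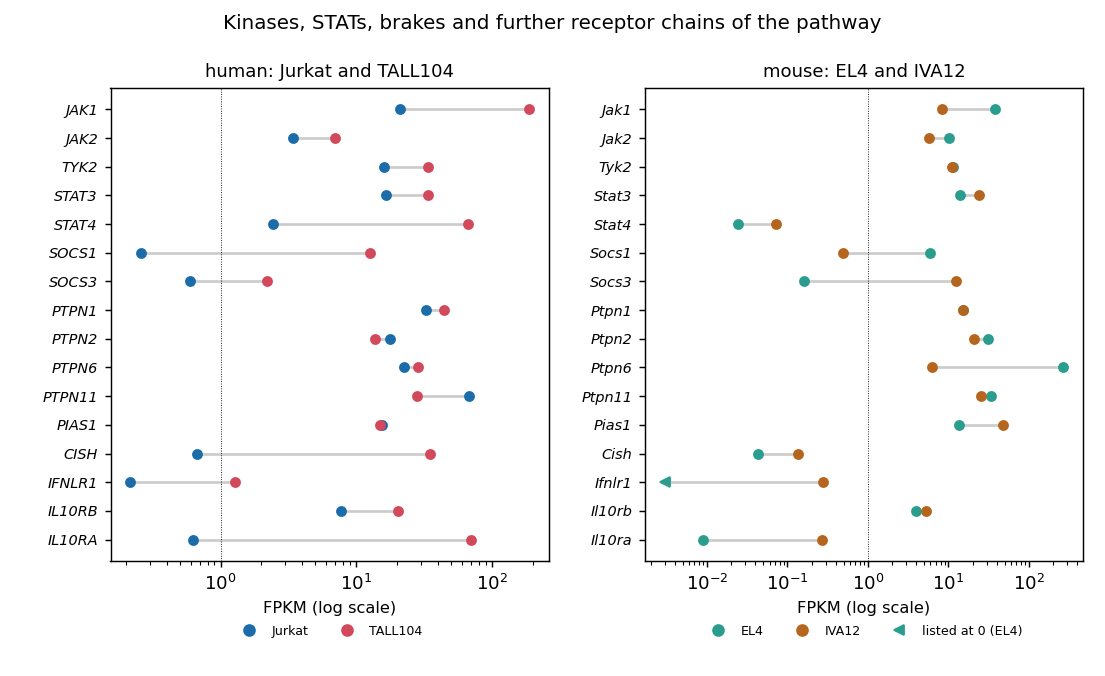
FPKM (log x axes) of 13 kinases, STATs and brakes and 3 further receptor chains in the human pair (left) and the mouse pair (right), with a grey line joining the 2 lines of a gene, 1 library per line, a dotted line at 1 FPKM and a triangle for a gene listed at 0. JAK1, STAT4, SOCS1, CISH and IL10RA lie far higher in TALL104, and Ptpn6 in EL4.

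Each of 3 further receptor chains of this family was higher in TALL104, beside 28.4% of detected and 11.4% of all human genes. IL10RA, which binds interleukin-10, had 0.624 FPKM in Jurkat and 69.8 in TALL104 (112-fold, 94.9 to 133). IFNLR1, the specific chain of the type III receptor, had 0.216 and 1.28 FPKM (5.90-fold, 4.12 to 8.66), and IL10RB, its partner, is given above. In mouse, Il10rb was 3.96 and 5.24 FPKM in EL4 and IVA12, and Ifnlr1 and Il10ra were under 1 FPKM.

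Upstream, the nucleic acid sensing genes included 7 of 19 (36.8%) higher in TALL104 and 0 in Jurkat. Of detected human genes, 28.4% and 34.2% were, and of all human genes 11.4% and 13.8%. Of the 19, 13 were detected in either line. CGAS, the cytosolic DNA sensor, had 0.0415 FPKM in Jurkat and 9.05 in TALL104, from 6 and 1066 reads (218-fold, 99.8 to 595). ZBP1, a sensor of Z-form nucleic acid, had 0.0106 and 2.15 FPKM, and UNC93B1, which escorts endosomal Toll-like receptors, had 1.62 and 6.98 FPKM. RIGI, the sensor of short viral RNA, had 7.44 and 11.9 FPKM (1.59-fold, 1.48 to 1.71), and IRF3, the factor the sensors activate, had 12 and 27.4 FPKM. The adaptors MAVS (13 and 17.5 FPKM) and STING1 (13.9 and 20.3 FPKM) were not past the threshold.

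In mouse 8 of 19 (42.1%) were higher in IVA12 and 1 (5.26%) in EL4, compared with 26.5% and 23.8% of detected and 11.2% and 9.75% of all mouse genes. Of the 19, 15 were detected in either line. Cgas had 0.00754 FPKM in EL4 and 4.27 in IVA12, from 1 and 446 reads. Irf5 had 0.0214 and 7.57 FPKM, from 2 and 556 reads (353-fold, 97.4 to 2926), and Zbp1 had 1.13 and 9.16 FPKM. The CGAS transcript was thus close to 0 in Jurkat and in EL4 and detected in the other line of each pair. Ddx58, the mouse name of RIGI, had 5.0 and 11.9 FPKM (2.38-fold, 2.21 to 2.56). Mavs (27.4 and 22.4 FPKM), Tmem173, the mouse STING gene (20.3 and 27.6 FPKM), and Irf3 (13.5 and 16.3 FPKM) stayed within the threshold.

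Further interferon-stimulated genes outside the set were in part of the same direction. Of 50 measured in human, 42 were detected in either line. Higher in TALL104 were 25 (50%) and in Jurkat 8 (16%), with 28.4% and 34.2% for detected and 11.4% and 13.8% for all human genes. The median log2 ratio was -0.57. SAMHD1, which depletes nucleotides and so restricts retroviruses, had 0.0331 FPKM in Jurkat and 65.3 in TALL104, from 6 and 9647 reads (1973-fold, 906 to 5378). TRIM22 had 0.740 and 97.8 FPKM (132-fold, 113 to 156), and SP140, a relative of SP100, had 0.0395 and 17.7 FPKM.

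Of 52 in mouse, 41 were detected in either line. Higher in IVA12 were 20 (38.5%) and in EL4 15 (28.8%), with 26.5% and 23.8% for detected and 11.2% and 9.75% for all mouse genes. The median log2 ratio was -0.17. Samhd1 had 0.0476 FPKM in EL4 and 66.9 in IVA12, from 14 and 15481 reads (1406-fold, 838 to 2572). Ifi27l2a had 1.81 and 97.1 FPKM, and Ifi30, a lysosomal thiol reductase of antigen presentation, had 1.59 and 86.3 FPKM. SAMHD1 was thus under 0.1 FPKM in Jurkat and in EL4, and above 50 FPKM in TALL104 and in IVA12.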

How the data were processed

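The authors prepared 1 stranded messenger RNA library per line and aligned paired reads with STAR 2.5.1b to a combined hg19 and mm10 reference (Cell Ranger 1.2.0). They counted genes with featureCounts 1.6.3 and deposited FPKM, with all 4 libraries in 1 table. How the bulk counting treated strand and reads with several alignments is not given in the sources used here.

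From the FPKM, whole reads were recovered for every value at a relative tolerance of 1e-12. Exact Poisson intervals were computed for levels and exact conditional binomial (Clopper-Pearson) intervals for ratios, at 95%, and a read count of 0 was given a floor of 3 reads. Symbols and positions came from GENCODE 44 mapped to hg19 and M21 on mm10. Shared sequence is the percentage of a gene's transcript windows of read length found in another gene. Ratios used a pseudocount of 1 FPKM, as in the study's own log scale, and a call was past 1.5-fold. With 1 library per line no count model or test was used. The calculations were run on simulated data in which the gene lengths were known. This does not test the reads recovered where the length did not match the annotated one. Python 3.11.15, NumPy 2.4.6, pandas 2.3.3, SciPy 1.17.1 and matplotlib 3.10.9 were used.

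Members and lists were chosen with earlier results of these data known. The text gives all receptors and transcription factors, the members with the 3 largest absolute log2 ratios of each other role per pair, the 3 largest of each pathway list per pair, and JAK1, JAK2, TYK2, SOCS1, IFNG, IRF3, RIGI, MAVS, CGAS and STING1. Every member could be named besides. Some genes of the lists are counted but not reported singly here. Alternatives changed the pseudocount, threshold, minimum FPKM, scaling and the members with near-identical copies.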

Additional observations from a re-analysis of the deposited data

Results flagged for a closer look

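Reads of members of the other species were present in every library and were used in no comparison. Mouse members had 17 reads in Jurkat (counting interval 9.90 to 27.2) and 12 reads in TALL104 (6.20 to 21.0). Human members had 24 reads in EL4 (15.4 to 35.7) and 81 reads in IVA12 (64.3 to 100.7). Each count was above the limit of 3 reads that a count of 0 allows. In IVA12 the reads fell on 25 human members, led by IFITM3 with 13, TRIM25 with 8 and STAT2 with 6. The libraries themselves held 36747 to 99999 reads on their own members.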

How the results depend on the processing

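No paired analysis was possible because each line was 1 library. Of 74 alternative values, 59 stayed within 1.5-fold of a count or within counting error of a median and 15 did not. A change of direction could be seen only for the median log2 ratios, and none of these changed sign. Requiring at least 1 FPKM in both lines gave 1 member higher in Jurkat, 4 in EL4 and 12 in IVA12, from fewer members tested (29 human, 25 mouse). A 2-fold threshold gave 2 higher in EL4, and detection at 5 FPKM gave 21 members in Jurkat. No share of all genes was computed at these settings. The human median log2 ratio of -0.90 became -1.28 and -1.30 with pseudocounts of 0.1 and 0.01, -1.10 with at least 1 FPKM required in either line or in both, -1.0 with median-ratio scaling and -1.0 without mitochondrially encoded genes. The mouse median of -0.90 became -1.37 and -1.37 with these pseudocounts, -1.36 with the minimum in either line and -0.39 with it in both. A smaller pseudocount draws low ratios less toward 0. Leaving out members that share at least 10% of their windows with another gene, an alternative added after the data were seen, gave 6, 20, 8 and 20 members higher in Jurkat, TALL104, EL4 and IVA12. Culture-to-culture variation could not be measured, and counting intervals do not include it.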

Other observations

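Some further interferon-stimulated genes went against the majority of the set in 1 or both pairs. They were chosen after their values were seen and stand outside the naming rule. CASP1, the inflammatory caspase, had 0.0155 FPKM in Jurkat and 14.3 in TALL104, whereas mouse Casp1 had 88.1 FPKM in EL4 and 10.6 in IVA12. NLRC5, the activator of class I antigen presentation genes, had 3.50 and 17.4 FPKM in the human pair, and mouse Nlrc5 had 18.3 and 3.38 FPKM. LGALS9, a galectin gene, was higher in Jurkat at 9.23 against 1.58 FPKM, and mouse Lgals9 was higher in EL4 at 199 against 12.3 FPKM.

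Igtp, Irgm1 and Irgm2, mouse immunity-related GTPase genes that act on vacuoles of intracellular pathogens, were also picked out by their values. Igtp had 5.11 FPKM in EL4 and 51.8 in IVA12 (10.1-fold, counting interval 9.05 to 11.4). Irgm1 had 2.63 and 17.2 FPKM, and Irgm2 had 1.46 and 17.6 FPKM. Iigp1, of the same family, had 0 and 5 reads and was not past the threshold. Cmpk2, a mitochondrial nucleotide kinase gene next to Rsad2, had 437 reads in EL4 and 0 in IVA12, and Rsad2 had 30 and 5. The human neighbours went opposite ways. CMPK2 had 16.7 FPKM in Jurkat and 6.48 in TALL104, and RSAD2 had 4.07 and 25.0 FPKM. Their exons overlap by 351 bases on opposite strands.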
